A study of Arabidopsis thaliana with 2 samples.

Results

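The respiratory chain of the inner mitochondrial membrane carries electrons from NADH and succinate through complexes I to IV to oxygen. Complex I oxidises NADH and complex II oxidises succinate, and both pass their electrons to ubiquinone. Complex III moves them on to cytochrome c, and complex IV, cytochrome c oxidase, hands them to oxygen, the last acceptor of the chain. Most subunits are encoded in the nucleus and imported, while a few core subunits of complexes I, III and IV are encoded in the mitochondrion itself. In plants, complex I also carries a domain of gamma carbonic anhydrases, and complex III contains the peptidase that cuts the targeting sequence from imported proteins.

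The genes described here are 59 nuclear loci of Arabidopsis thaliana that encode subunits of these complexes, 34 of complex I, 3 of complex II, 14 of complex III and 8 of complex IV. A gene was included when the array annotation paired a probe set, the group of probes that reads out a transcript, with that gene alone. This held for 40 of the 59 genes, out of 13355 genes with such a probe set on the array. Of the other 19, 5 share a probe set with another gene and 14 have no probe set that could be used here. The 14 are all 5 carbonic anhydrase genes, the complex I genes AT5G37510, AT5G08530, AT1G79010, AT1G16700, AT4G34700 and AT1G04630, the peptidase gene AT3G16480, and the complex IV genes AT1G22450 and AT4G28060.

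Transcript levels were measured in protoplasts, leaf mesophyll cells freed from their walls. The hypoxia sample was kept for 6 h under 25 mm of mannitol buffer, 2 ml in a tube. The control sample was kept for 6 h under 0.6 mm of that buffer, 10 ml spread in a dish. Both came from 1 pool of cells from 36 plants and stood under the same light, 80 microeinstein; genotype and plant age are not given in the labels. Each group was 1 array, so no difference below has a replicate check and no test was possible, and oxygen, vessel and cell density cannot be told apart.

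Median intensity was 334 on the hypoxia array and 345 on the control array, 62.2% and 57.8% of probe sets lay above the floor defined below, and the 3′ over 5′ intensity ratio of the actin control was 1.39 in hypoxia and 1.33 in control by one set of control probes, and 4.48 in hypoxia and 4.96 in control by another. All 5 mesophyll markers read had intensities of 4958 or more on both arrays, and their log2 ratios of hypoxia over control ran from 0.75 to 1.41. The guard cell genes FMA and AT1G22690 stayed at 328 or less on both arrays, and the phloem gene SWEET11 read 1020.2 in hypoxia and 212 in control. Those read were 5 of 7 mesophyll, 2 of 4 guard cell and 1 of 3 phloem markers listed. None of the 3 epidermis markers listed was measured. Fewer cells of a type and less RNA per cell cannot be told apart in such samples, and the part of other cell types in the results was not tested. All 9 hypoxia marker genes that could be read, out of 11 listed with earlier results known, were at least 2-fold higher in hypoxia. That held for 13.0% of all measured genes. Some of the markers, such as AT4G10270 with 3.4 in control, lay under that floor in control, so their ratios are lower bounds. ADH1 and PDC1 were not analysed here.

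Most nuclear genes of the respiratory chain had lower transcript levels in hypoxia than in control, by modest amounts. Of the 40 genes, 36 had a log2 ratio of hypoxia over control below 0, or 90.0%, against 52.9% of the 7972 genes measured on the array. Their median log2 ratio was -0.64, which is 0.642 times the control level, while the median of all measured genes was -0.066. COX5C gene AT5G61310, of complex IV, had the lowest ratio, and QCR7 gene AT5G25450, of complex III, the highest, at 4.12-fold above control.

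A gene counted as measured when its scaled intensity lay above a floor of 165.7 on at least 1 array. All 40 genes lay above the floor on both arrays, with a lowest intensity of 497, so none of their ratios is a bound. Among the 6648 genes above the floor on both arrays, 57.6% had a ratio below 0.

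At least 2-fold lower in hypoxia were 7 of the 40 genes, against 14.5% of all measured genes and 15.7% of those above the floor on both arrays. At least 2-fold higher was 1 of 40, against 13.0% and 12.7%. At 1.5-fold, 21 genes were lower and 3 higher, against 27.9% and 22.6% of all measured genes. Most differences were small and in 1 direction: 35 of 40 lay below the median ratio of all measured genes and 18 below its lower quartile of -0.66, while 3 lay above its upper quartile of 0.51. The scatter of ratio on intensity shows this as a band just under 0.

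**Figure D1:**
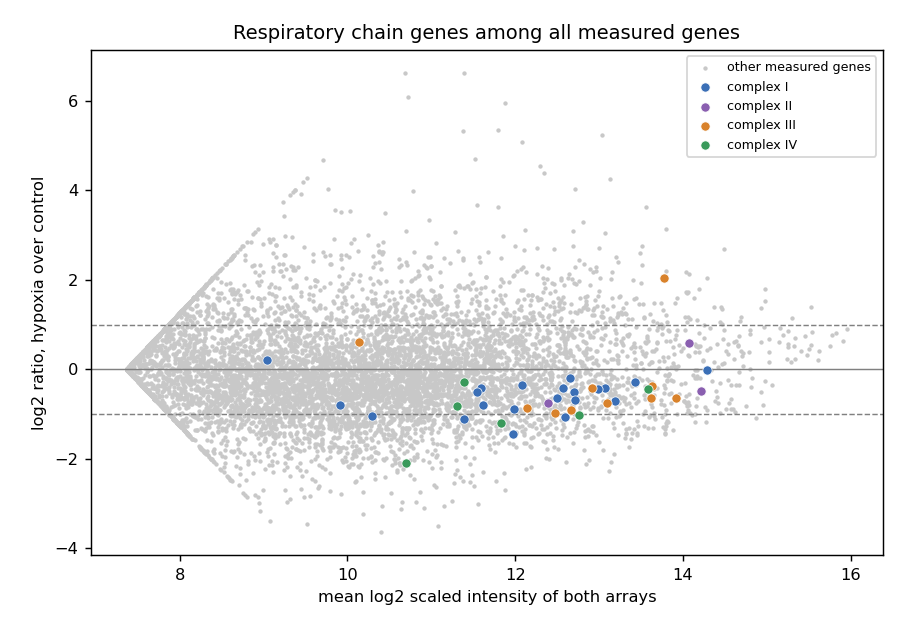
Log2 ratio of hypoxia over control (vertical axis) against mean log2 scaled intensity of both arrays (horizontal axis) for 7972 measured genes, with the 40 respiratory chain genes coloured by complex and dashed lines at 2-fold. The coloured points form a band below 0 at middle and high intensities, with 1 complex III gene, AT5G25450, above the upper dashed line.

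The only measure of spread in these data is between different probe sets of a gene. For 74 genes, 2 probe sets each could be read on both arrays without the floor, and the SD of a probe set's log2 ratio around its gene was 0.34. This covers probe effects and not variation between cultures. Of the 40 genes, 5 had a ratio smaller than that SD in either direction.

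**Figure D2:**
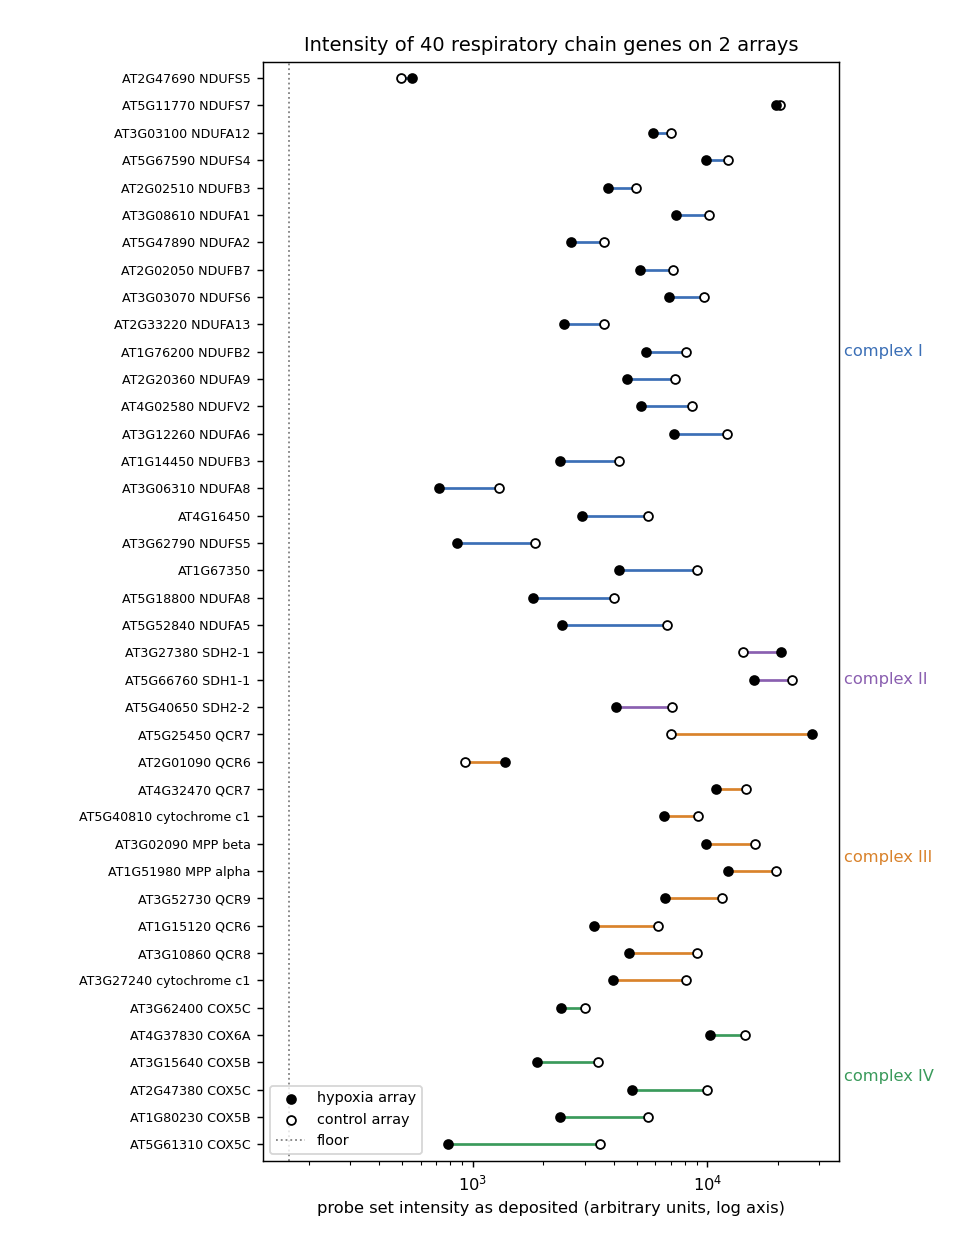
Probe set intensity on the hypoxia array (filled points) and on the control array (open points), on a log axis, for the 40 genes, ordered within each complex by their ratio and labelled with the human homologue or plant name. The filled point lies left of the open point for 36 genes; levels of different probe sets are not comparable with each other.

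Complex I, the NADH dehydrogenase, had 21 measured genes, of which 20 had a ratio below 0, 4 were at least 2-fold lower and 0 were at least 2-fold higher. Over all measured genes those shares were 52.9%, 14.5% and 13.0%. The median log2 ratio of the complex I genes was -0.52. The 9 genes of the matrix arm, which holds the flavin and the iron-sulfur clusters, ran from -1.44 to -0.020 with a median of -0.45. The 11 genes of the membrane arm, which pumps protons, ran from -1.11 to 0.20 with a median of -0.52. The ranges of both arms overlapped.

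Among the catalytic subunits of the matrix arm, AT4G02580, whose human homologue NDUFV2 belongs to the module that takes electrons from NADH, read 5199.6 in hypoxia and 8624 in control, a log2 ratio of -0.68. AT5G11770, the PSST protein that carries the iron-sulfur cluster next to the ubiquinone site, read 19551 in hypoxia and 20477 in control. Its ratio of -0.020 was the closest to 0 of all 40 genes.

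The accessory subunits of the matrix arm surround this core. AT5G52840, homologue of human NDUFA5, had the lowest ratio of complex I, with 2399 in hypoxia and 6731 in control, 2.72-fold lower. Only 5.7% of the measured genes had a lower ratio. AT3G12260, a homologue of NDUFA6, read 7195 in hypoxia and 12098 in control, and AT2G20360, a homologue of NDUFA9, read 4540.5 in hypoxia and 7309.5 in control, with ratios of -0.70 and -0.64. The difference was smaller for FRO1 (AT5G67590, NDUFS4), known from an Arabidopsis mutant with impaired cold-induced gene expression, which read 9833.5 in hypoxia and 12289 in control, a ratio of -0.27. The homologues of NDUFS6 (AT3G03070), NDUFA2 (AT5G47890) and NDUFA12 (AT3G03100) had ratios of -0.45, -0.42 and -0.20.

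In the membrane arm, 2 of the 11 genes were at least 2-fold lower, against 14.5% of all measured genes. AT5G18800, homologue of NDUFA8, read 1800.3 in hypoxia and 4010.5 in control, a ratio of -1.11. AT3G62790, homologue of NDUFS5, read 859 in hypoxia and 1840.4 in control, a ratio of -1.05. Their paralogues AT3G06310 and AT2G47690 had ratios of -0.81 and 0.20. The NDUFB7 homologue AT2G02050 read 5160.2 in hypoxia and 7157 in control, a ratio of -0.43.

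AT4G16450, an accessory subunit of the membrane arm, read 2913 in hypoxia and 5613 in control, a ratio of -0.90. AT1G67350, an accessory subunit that has not been placed in an arm here, read 4212 in hypoxia and 9059 in control, a ratio of -1.06. The homologues of NDUFB2 (AT1G76200), NDUFA13 (AT2G33220) and NDUFA1 (AT3G08610) had ratios of -0.52, -0.52 and -0.42. AT2G47690 was the only complex I gene with a ratio above 0.

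Complex II, succinate dehydrogenase, links the TCA cycle to the chain, and its 3 measured genes did not share a direction. SDH1-1 (AT5G66760), the flavoprotein that oxidises succinate, read 15883 in hypoxia and 22911 in control, a log2 ratio of -0.48. SDH2-1 (AT3G27380), which encodes the iron-sulfur subunit, read 20707 in hypoxia and 14193 in control, 1.51-fold higher. Its log2 ratio ran from 0.090 to 0.80 over the alternative settings, and the lowest was smaller than the probe set SD of 0.34. SDH2-2 (AT5G40650), a second gene for the same subunit, read 4090.1 in hypoxia and 7103 in control, a ratio of -0.75. A further probe set of SDH2-1 was too dim to use, with 156 in hypoxia and 8.7 in control.

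Complex III, the cytochrome bc1 complex, had 10 measured genes, 8 of them with a ratio below 0, and a median of -0.64. None was at least 2-fold lower and 1 was at least 2-fold higher. The shares of all measured genes below 0, 2-fold lower and 2-fold higher were 52.9%, 14.5% and 13.0%. The beta subunit of the mitochondrial processing peptidase, MPPBETA (AT3G02090), read 9906 in hypoxia and 15907 in control. The alpha subunit gene AT1G51980 read 12219.9 in hypoxia and 19706 in control. Both core proteins had a ratio of -0.64, so the genes of this heterodimer differed by nearly the same factor.

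Cytochrome c1 is the haem protein that passes electrons to cytochrome c. Its gene AT3G27240 read 3981 in hypoxia and 8122 in control, a ratio of -0.98, just inside 2-fold; it was past 2-fold lower, at -1.03 and -1.04, with values as deposited and with quantile normalization, and at -1.48 with hybridisation control centring. AT5G40810, which encodes the same protein, read 6549 in hypoxia and 9111 in control, a ratio of -0.43. Of the small subunits with a ratio below 0, the QCR8 gene AT3G10860 read 4658 in hypoxia and 9035 in control, a ratio of -0.91. The QCR9 gene AT3G52730 read 6625 in hypoxia and 11539.9 in control, a ratio of -0.75.

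Complex IV had the lowest median of the complexes, -0.92, and all 6 measured genes had a ratio below 0. All encode accessory subunits, since the catalytic core is encoded in the mitochondrion, and they cover only COX5C, COX5B and COX6A. At least 2-fold lower were 3 of the 6, against 14.5% of all measured genes, 52.9% of which had a ratio below 0. The 3 were COX5C and COX5B genes, and each of these subunits has several genes among the 6. The gene AT5G61310, for the small subunit COX5C, read 788 in hypoxia and 3485 in control, 4.28-fold lower, and 1.4% of the measured genes had a lower ratio.

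The zinc-binding subunit COX5B was lower for both its genes. AT1G80230 read 2363 in hypoxia and 5610.2 in control, a ratio of -1.20, and AT3G15640 read 1877 in hypoxia and 3432 in control, a ratio of -0.82. COX6A, encoded by AT4G37830, differed less, with 10285 in hypoxia and 14519 in control and a ratio of -0.45. With few genes and no replicates, the order of the complexes is a description of these arrays.

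**Figure D3:**
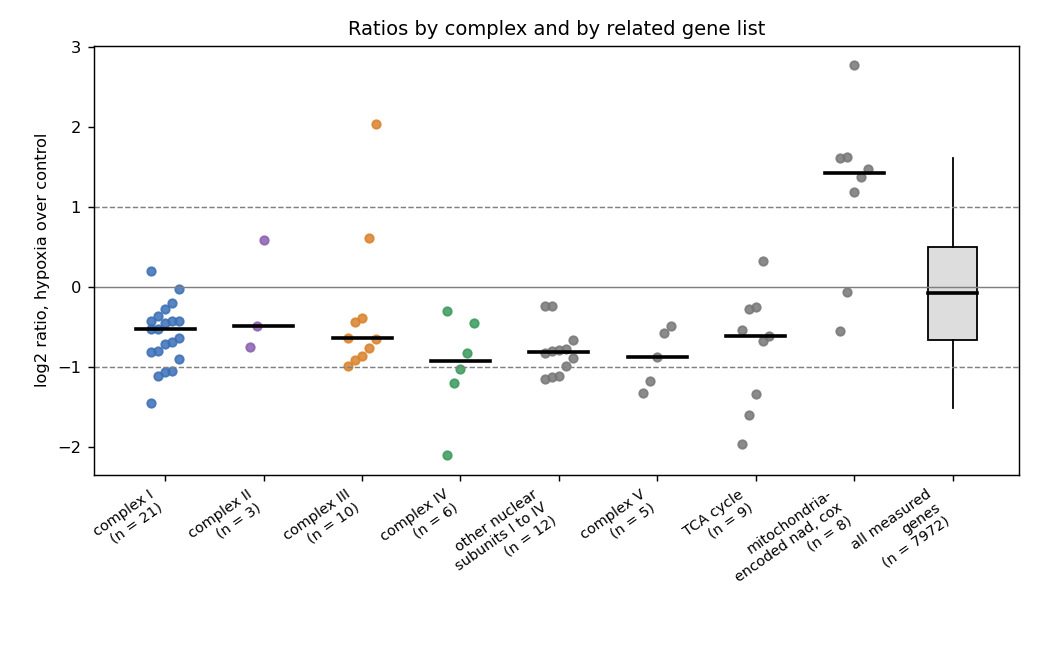
Log2 ratio of hypoxia over control (vertical axis) for each measured gene (points) with the median of each list (bar), for complexes I to IV, for related nuclear lists and for mitochondria-encoded genes; the box shows the quartiles and the whiskers the central 90% of all measured genes. Medians of the 4 complexes lie between -0.92 and -0.48, and that of the mitochondria-encoded genes at 1.43.

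Several subunits are encoded by more than 1 measured gene, and some of these paralogues differed in their ratio. There were 19 genes in 9 groups with the same product, which gave 11 pairs. All 4 respiratory chain genes with a ratio above 0 belonged to these groups, each beside a paralogue with a ratio below 0, although AT2G47690 itself was at -0.30 with hybridisation control centring. Opposite signs also occurred within a gene: of the 74 genes with 2 probe sets, 54 had the same sign in both. As 36 of the 40 genes lay below 0, a partner below 0 was likely for any gene above 0. The 21 genes with no measured paralogue all had ratios below 0, from -1.44 to -0.020, except that AT5G11770 and AT3G03100 were at 0.19 and 0.013 with reference gene centring. A factor that multiplies a whole array cancels in a difference between paralogues, so these differences do not depend on how the arrays were scaled as a whole.

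The largest difference was between the genes for QCR7, a small subunit of complex III. AT5G25450 read 28031 in hypoxia and 7021 in control, a log2 ratio of 2.04, with 97.4% of the measured genes below it. Its paralogue AT4G32470 read 10907 in hypoxia and 14652 in control, a ratio of -0.38. The difference between them was 2.42 and ran from 2.37 to 2.42 over the alternative settings.

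The hinge protein QCR6 supports the contact of cytochrome c1 with cytochrome c. Its gene AT2G01090 read 1376 in hypoxia and 927 in control, a ratio of 0.62, and AT1G15120 read 3294 in hypoxia and 6189 in control, a ratio of -0.86, a difference of 1.48. The ratio of AT2G01090 ran from 0.11 to 0.86 over the alternative settings. The genes of the SDH2 subunit differed by 1.34. For the NDUFS5 homologue, AT2G47690 read 554 in hypoxia and 497 in control, a ratio of 0.20 that is smaller than the probe set SD, and it differed from AT3G62790 by 1.26.

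COX5C had 3 genes, all below 0 but spread widely. AT3G62400 read 2376 in hypoxia and 3007 in control, a ratio of -0.29. AT2G47380 read 4771 in hypoxia and 10011.9 in control, a ratio of -1.02. AT5G61310 at -2.10 lay 1.80 below the first and 1.07 below the second.

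The other paralogues were closer. Of the genes for the NDUFB3 homologue, AT2G02510 read 3760.2 in hypoxia and 4989.5 in control, a ratio of -0.36, and AT1G14450 read 2348 in hypoxia and 4219 in control, a ratio of -0.80. For the NDUFA8 homologue, AT3G06310 read 717 in hypoxia and 1294 in control, a ratio of -0.81, against -1.11 for AT5G18800. The COX5B genes differed by 0.38 and the cytochrome c1 genes by 0.55. The pairs of NDUFB3, NDUFA8 and COX5B, 3 in all, differed by less than 0.49, the SD of a difference between 2 probe sets of the same gene. Of the 11 pairs, 6 differed by at least 1 on the log2 scale, and 5 did with quantile normalization or loess, where AT2G47380 and AT5G61310 differed by less than 1, down to 0.88 with loess. The 3 COX5C genes gave 3 of the 11 pairs. The quartiles of all measured genes were -0.66 and 0.51, and how often 2 unrelated genes differ by at least 1 was not counted. None of the 40 probe sets carries the suffix that the array uses for probe sets matching several transcripts; binding to paralogous transcripts was not tested.

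**Figure D4:**
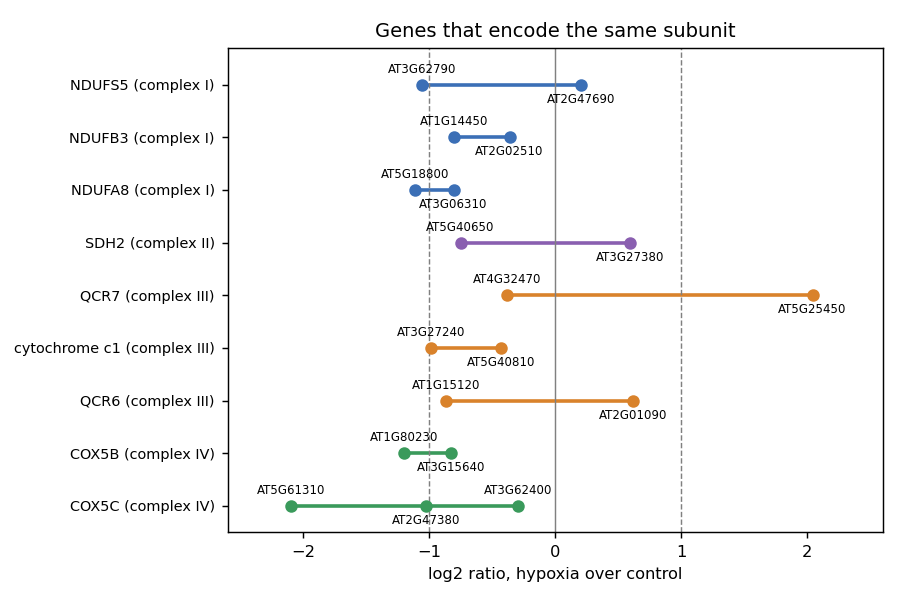
Log2 ratio of hypoxia over control (horizontal axis) for genes that encode the same subunit, 1 row a subunit, named by the human homologue or plant name, with lines joining the genes and dashed lines at 2-fold. In 4 rows the line crosses 0, and the QCR7 row is the longest, with a difference of 2.42.

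Other genes of the pathway were read from lists drawn up with earlier results known. A further 12 measured nuclear subunits of complexes I to IV, out of 22 listed, all had ratios below 0, with a median of -0.81, and 3 were at least 2-fold lower. Over all measured genes, 52.9% had a ratio below 0 and 14.5% were at least 2-fold lower. The lowest of the 12 were the complex I genes AT3G57785, AT4G00585 and AT1G68680, at -1.15, -1.12 and -1.10. All 5 measured genes of complex V, the ATP synthase, out of 12 listed, were below 0 as well, with a median of -0.87. AT2G19680, AT4G26210 and AT4G29480, which encode its subunit g, had -1.32, -1.18 and -0.87. Cytochrome c, the carrier between complexes III and IV, differed less, with -0.35 for CYTC-1 (AT1G22840) and -0.25 for CYTC-2 (AT4G10040).

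Alternative routes for electrons bypass the proton-pumping complexes. NDB2 (AT4G05020), an external NAD(P)H dehydrogenase, read 5659.6 in hypoxia and 9818 in control, and NDC1 (AT5G08740) read 1038 in hypoxia and 1562.5 in control, with ratios of -0.75 and -0.54. NDB1 (AT4G28220) read 222 in hypoxia and was under the floor in control, which makes 0.44 a lower bound on its log2 ratio. NDB3 and NDB4 were under the floor on both arrays, and the alternative oxidase and uncoupling protein genes were not analysed here.

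The 3 measured assembly factors were also below 0. GLDH (AT3G47930), which makes ascorbate and is needed for complex I assembly, had -0.61. The copper chaperone genes for complex IV, AT1G53030 (COX17) and AT1G02410 (COX11), had -1.13 and -0.40. The TCA cycle, which feeds the chain, had 8 of 9 measured enzyme genes below 0, against 52.9% of all measured genes. Its median was -0.61. Its lowest were AT5G23250, a succinyl-CoA ligase alpha gene, at -1.96, and AT5G65750, a 2-oxoglutarate dehydrogenase gene, at -1.59. A second gene for each product, AT5G08300 and AT3G55410 in that order, had -0.61 and 0.33. AT2G20420, the succinyl-CoA ligase beta gene, had -1.33.

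Subunits of the same complexes that are encoded in the mitochondrion lay mostly on the other side of 0. Of 8 measured nad and cox genes, 6 were at least 2-fold higher in hypoxia, with a median of 1.43, against 13.0% of all measured genes at least 2-fold higher. With hybridisation control centring 3 of the 8 were, against 528 of 7916 measured genes. The median of the 8 was then 0.93, and that of all measured genes was -0.55. Among the 6 were cox1 at 1.62 and cox2 at 1.38, whose products belong to the catalytic core of complex IV.

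How far the nuclear genes lay below control depended on the scaling. The median of the 40 genes was -0.43 when the arrays were centred on 5 reference genes and -1.14 with centring on the hybridisation control probe sets, all 18 of which were higher on the hypoxia array. Those centrings gave 34 and 37 genes below 0, against 43.8% and 71.5% of all measured genes. At least 2-fold lower were 2 and 23 of the 40 genes, or 5.0% and 57.5%, against 9.82% and 31.0% of all measured genes. The share past 2-fold was thus under that of all genes with reference gene centring and above it with hybridisation control centring. AT5G61310 and AT5G52840 were the 2 that stayed at least 2-fold lower with reference gene centring. The median of all measured genes moved as well, to 0.11 and -0.55, and the gap between it and the respiratory chain median was -0.54 and -0.59, against -0.57 in the setting used above. Over all 10 alternatives it ran from -0.77, with the floor at percentile 20, to -0.49, with the floor at percentile 60.

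**Figure D5:**
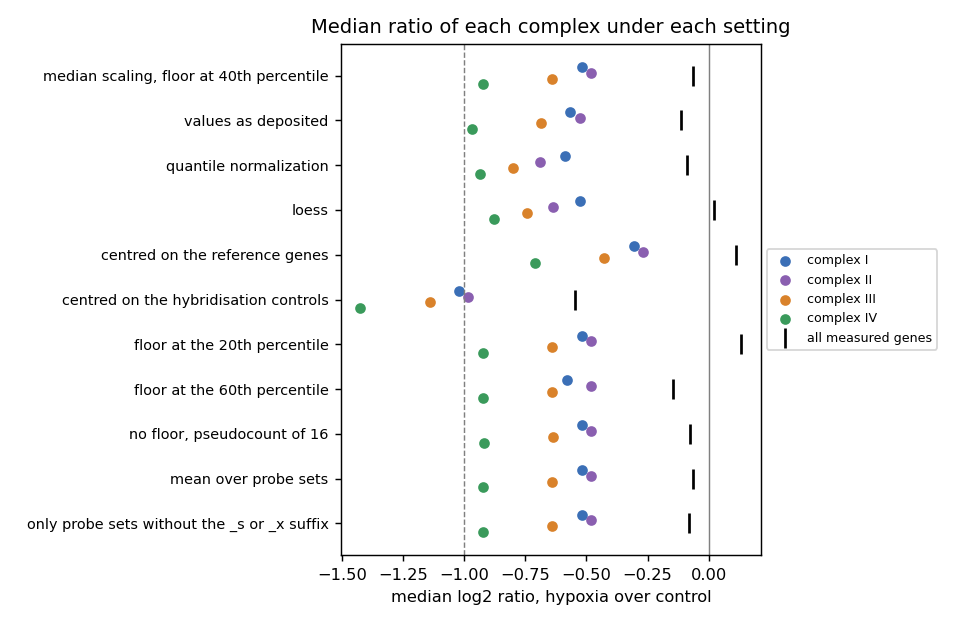
Median log2 ratio of hypoxia over control (horizontal axis) of each complex (coloured points) and of all measured genes (black ticks) under the setting used in the text (top row) and 10 alternatives. Every complex median lies left of the tick of all measured genes in each row, while centring on the hybridisation controls moves both to the left.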

How the data were processed

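The authors deposited 1 intensity per probe set, not log-transformed, for each of 2 Affymetrix arrays, 1 per group. GCOS 1.0 was used, per the submitters' processing notes. How it was set and which genome build the probes follow are not given in the sources used here. A mean that leaves out 2% of probe sets at each end came to 1500.1 on either array, so each had been scaled as a whole.

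Of 22810 probe sets, 64 manufacturer's controls were left out. An older platform annotation paired 13513 probe sets with 1 gene, 13436 of which matched a RefSeq gene table of TAIR10.1. Both arrays were scaled to a common median, the geometric mean of their medians. Scaled values below a floor, set at percentile 40 of both arrays together, were raised to it before taking the log2 ratio, hypoxia over control. A gene with several probe sets was read from the one with the highest mean log2 intensity. Printed intensities are as deposited.

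No test was run, since each group was 1 array, and the number of arrays limits the precision. The calculation was checked on simulated data with set changes larger than most of those reported here. How well smaller changes are recovered was not checked. Alternatives were other scalings (none, quantile, loess, reference genes, hybridisation controls), other floors or a pseudocount of 16, and other choices of probe set. Members and gene lists were chosen with earlier results of these data known. Every member with a probe set could be named, and from each other list the 3 largest absolute ratios, or all of 4 or fewer. Second genes of TCA cycle enzymes were added beside the lowest ones after their values were seen. The hypoxia marker AT4G10270, named for its control value under the floor, also falls outside that rule. The mitochondria-encoded genes and the shared probe sets were chosen after their values were seen. Python 3.11.15, pandas 2.3.3 and statsmodels 0.14.6 were used.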

Additional observations from a re-analysis of the deposited data

How the results depend on the processing

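Each result was recomputed under 10 alternatives listed at the outset and 1 added after seeing the data. No paired analysis was possible because each group holds 1 array. Median log2 ratios, for all 40 genes and for complexes I, II, III and IV in that order, were -0.43, -0.31, -0.27, -0.43 and -0.71 with reference gene centring, and -1.14, -1.02, -0.98, -1.14 and -1.43 with hybridisation control centring. With quantile normalization the median was -0.70 for all genes, -0.69 for complex II and -0.80 for complex III. Counts at least 2-fold lower were 2 with reference gene centring and 23 with hybridisation control centring, against 9.82% and 31.0% of all measured genes. With the second of these, 35 genes were at least 1.5-fold lower, against 48.5% of all genes. At least 1.5-fold higher was 1 gene, both for values as deposited and for hybridisation control centring. The share of all measured genes at that threshold was not counted in these settings. Of all measured genes, 54.8% and 71.5% had a ratio below 0, in that order. Adding the probe sets that paralogous members share, an alternative chosen after seeing the data, gave -0.58 for all genes. Signs changed for AT5G11770 and AT3G03100 with reference gene centring, and for AT2G47690 with hybridisation control centring; none of the 8 genes past 2-fold changed sign. AT3G62790 came within 2-fold with quantile normalization and loess, and AT3G27240 went past 2-fold lower with quantile normalization and values as deposited. Taking the mean over probe sets or leaving out probe sets with a shared suffix could not change the members, which rest on 1 such probe set each above the floor. With a floor at percentile 60, AT2G47690 was no longer measured. The split of all genes past 2-fold, 47.3% of them higher, moved to 62.7% with reference gene centring, 17.7% with hybridisation control centring and 61.8% for a floor at percentile 20.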

Other observations

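Probe sets that the annotation pairs with several genes entered no count above, and 3 of them include respiratory chain genes. The probe set shared by AT5G13430 and AT5G13440, which both encode the Rieske iron-sulfur protein of complex III, read 12699 in hypoxia and 15875 in control, a log2 ratio of -0.28. The probe set shared by AT1G49140 and AT3G18410, homologues of human NDUFB10 in complex I, read 13366 in hypoxia and 17684 in control, a ratio of -0.36. Both lie on the same side of 0 as most of the 40 genes. The probe set shared by the QCR8 gene AT5G05370 and AT1G68010, a peroxisomal hydroxypyruvate reductase gene of photorespiration, read 8996 in hypoxia and 8389 in control, and cannot be assigned to either.

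Among mitochondria-encoded genes, nad6 had the highest ratio, 2.78, with 3395 in hypoxia and 510.2 in control. The ratios of nad1 depended on the probe set and the floor, with -0.55 from its brightest probe set, -0.049 as the mean over probe sets and 0.56 for a floor at percentile 60.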
